A study of Homo sapiens with 16 samples.

Results

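The AXL family consists of 3 receptor tyrosine kinases, AXL, TYRO3 and MERTK, and their ligands GAS6 and PROS1. These 5 genes were taken by name from a table of 27043 named gene rows, and each matched a single row that held its name alone. The counts come from 603 cells of the neuroblastoma line SK-N-AS, established from a human tumour. They were measured with MARS-seq, a method that sorts single cells into wells and in which the 3' ends of polyadenylated RNA are counted. The cells were untreated and were grown in RPMI1640 medium with fetal calf serum, penicillin and streptomycin, and all samples share this condition. The labels describe 16 samples of the line, but the columns carry cell barcodes only, with no link to those samples. All cells were therefore treated as 1 sample, and no value here has a replicate.

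The receptors of this family have an extracellular part of immunoglobulin-like and fibronectin type III domains, a single membrane span and an intracellular kinase. GAS6 binds every receptor of the family, while protein S, the product of PROS1, is best known as a ligand of TYRO3 and MERTK. Both ligands carry glutamate residues that are carboxylated with the help of vitamin K, and through these they bind phosphatidylserine on dying cells and on membranes. In phagocytes the receptors drive the uptake of dying cells and dampen inflammatory signals. In tumour cells AXL is known for its link to mesenchymal features and to resistance to kinase inhibitors, and in neuroblastoma it is counted among the genes of the mesenchymal state. Protein S circulates in plasma, and receptor and ligand proteins were not measured here.

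All cells together held 1537576 counts, from 1000 to 42404 per cell with a median of 2106. Of 364 different barcodes, 239 are shared by the first 316 columns (barcode set 1) and the remaining 287 (barcode set 2). The sets were taken from the column order, no source used here says what they stand for, and they serve as a check within the sample. Levels are given as CPM, the counts of a gene scaled to an equal total for all genes, with exact Poisson intervals at 95%, and shares of cells carry exact Clopper-Pearson intervals at 95%. All intervals cover counting error only. As a check of the cells against other types that can carry these receptors, 5 of 13 macrophage and leukocyte markers had a count, LYZ and CD163 being at 0, against 50.4% of all named rows. Their number is near that background. The list summed to 76.1 CPM, mostly CD68 (54.6 CPM) and PTPRC (18.9 CPM). Of 10 endothelial markers 4 had a count, also near the background, and FLT1 was the highest at 25.4 CPM. The mesenchymal marker VIM stood at 5649 CPM.

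The family was dominated by AXL. AXL had 624 counts, a level of 406 CPM (375 to 439), TYRO3 had 62 counts (40.3 CPM, 30.9 to 51.7), MERTK and PROS1 had 9 counts each (5.85 CPM, 2.68 to 11.1), and GAS6 had 0 counts. AXL thus made up 89.8% (87.3 to 91.9) of the counts of the receptors. The level of AXL was 10.1-fold that of TYRO3 (7.74 to 13.3) and 69.3-fold that of MERTK (36.3 to 152). TYRO3 was 6.89-fold above MERTK (3.40 to 15.8), while MERTK and PROS1 had a ratio of 1 (0.352 to 2.84). The order of the members was the same in both barcode sets except for MERTK and PROS1, whose ratio was 2 in set 1 and 0.20 in set 2. Counting at the 3' end gives 1 end per molecule, so counts were not divided by gene length. At or above 5 CPM stood 4 of the 5 members, against 35.2% of all named rows, and 4 had a count, against 50.4% of all named rows.

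**Figure D1:**
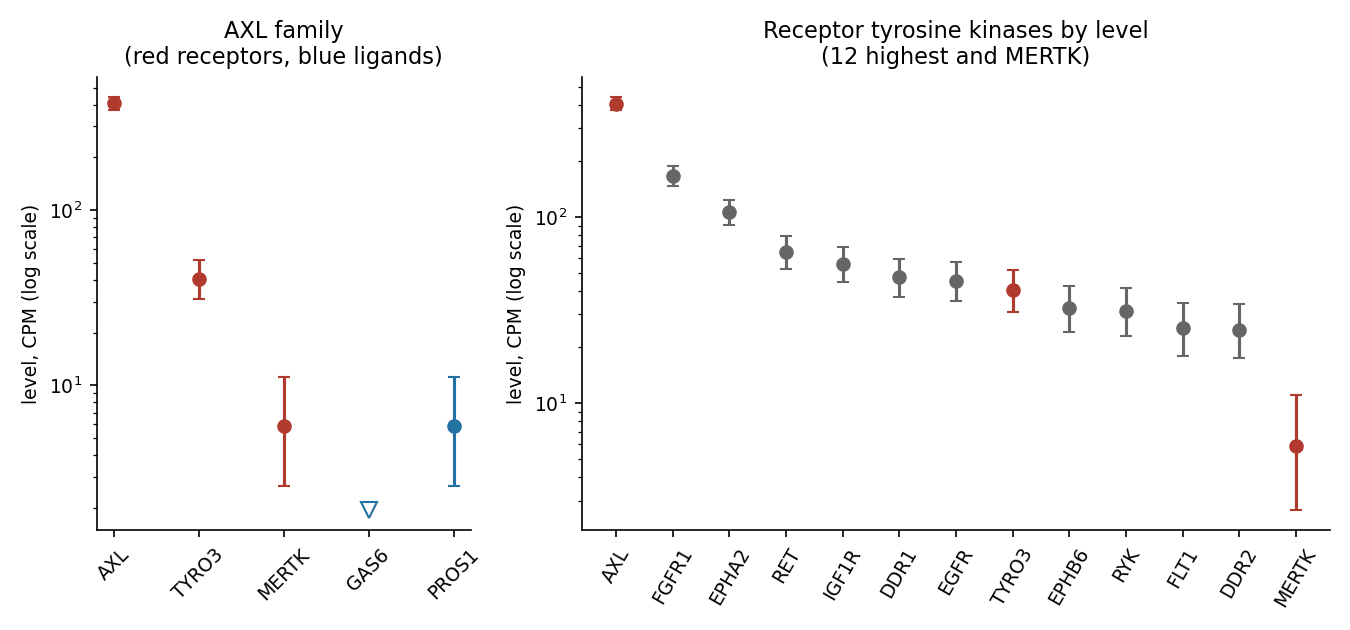
Levels in CPM on a log scale with exact 95% Poisson intervals. Left, the 5 family members (receptors in red, ligands in blue). GAS6, with 0 counts, is an open triangle at 1.95 CPM, the level of 3 counts. Right, the 12 most abundant receptor tyrosine kinases with MERTK (family members in red). AXL stands at 406 CPM, above FGFR1 at 167 CPM, while TYRO3 lies among receptors whose intervals overlap.

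The upstream sequences of AXL and GAS6 are given because they belong to the most abundant member and to the member with no count. They are the 250 bases before the annotated start in RefSeq's table for GRCh38.p14, whose build differs from that of the alignment (hg19), and all 5 members had an entry there. Capitals mark GC boxes (GGGCGG on either strand), the motif of the zinc finger factors SP1 and SP3, which are reported to act on AXL.
AXL, chr19:41218973-41219222, + strand: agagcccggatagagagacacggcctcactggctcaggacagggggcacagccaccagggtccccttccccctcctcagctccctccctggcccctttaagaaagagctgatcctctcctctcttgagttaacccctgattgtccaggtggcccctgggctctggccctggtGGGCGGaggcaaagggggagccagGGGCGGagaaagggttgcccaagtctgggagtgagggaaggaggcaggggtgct
GAS6, chr13:113864077-113864326, - strand: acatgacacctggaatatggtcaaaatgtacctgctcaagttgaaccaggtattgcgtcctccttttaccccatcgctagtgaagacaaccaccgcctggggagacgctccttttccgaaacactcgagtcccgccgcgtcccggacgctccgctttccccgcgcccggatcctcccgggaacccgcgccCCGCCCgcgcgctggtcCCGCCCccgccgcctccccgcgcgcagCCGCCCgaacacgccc
The AXL window held 2 GC boxes, starting 78 and 54 bases before the start, and the GAS6 window held 3, starting 60, 43 and 16 bases before it. Such a box occurred in 42.6% of 35116 upstream windows of the same length. Neither window held the AP-1 motif TGANTCA, found in 6.57% of windows, nor the TEAD motif GGAATG, found in 11.9%, on either strand. These are matches of letters, and the counts of RNA say nothing on whether a factor was bound there.

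AXL was also placed among all receptor tyrosine kinases, to show which receptors these cells transcribed most. Of 58 such receptors 20 had 0 counts, while 50.4% of all named rows had a count. AXL ranked first with 33.3% (31.1 to 35.4) of the counts of these receptors. Next came FGFR1, a fibroblast growth factor receptor, at 167 CPM (147 to 189), and AXL exceeded it 2.43-fold (2.1 to 2.82). The ephrin receptor EPHA2 followed at 106 CPM (90.4 to 124), and RET, a receptor of the sympathetic lineage, at 65.0 CPM (52.9 to 79.1). FGFR1 and EPHA2 differed by more than counting error (1.58-fold, 1.29 to 1.93), as did EPHA2 and RET (1.63-fold, 1.26 to 2.11). From RET downward no neighbours in the order differed beyond counting error among the 10 most abundant. IGF1R stood at 55.9 CPM, DDR1 at 47.5 CPM, EGFR at 45.5 CPM, EPHB6 at 32.5 CPM and RYK at 31.2 CPM. TYRO3 ranked 8, with EGFR above it by 1.13-fold (0.791 to 1.62) and EPHB6 below it by 1.24-fold (0.841 to 1.84). MERTK ranked 21. Of all rows with a count, 2.83% had more counts than AXL.

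AXL transcripts were spread over many cells. A count of AXL was present in 302 of 603 cells (50.1%, 46.0 to 54.1), with 144 cells at 1 count, 89 at 2, 69 at 3 or more and a highest value of 10. The cell with 10 counts was also the deepest, with a total of 42404. The 10 cells with the most AXL held 11.9% of its counts. The share of AXL-positive cells followed depth, at 32.5%, 46.7%, 52.3% and 68.9% in 4 classes of nearly equal cell number from the lowest to the highest totals. The level did not, at 412 CPM (324 to 517), 418 CPM (343 to 503), 418 CPM (355 to 489) and 393 CPM (349 to 442) in the same classes.

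For values per cell every cell was therefore thinned at random to 1100 counts, which kept 560 cells and left out 43 shallower ones (7.13%). At this depth 174 cells (31.1%, 27.3 to 35.1) had an AXL count, 31.0% in barcode set 1 and 31.2% in set 2, and the share lay between 28.7% and 34.0% in the classes of depth. The thinned AXL count had a Spearman rho of 0.020 with the total of the cell and of -0.039 with the number of genes seen at equal depth. The other 386 cells are called AXL-negative below, which means no AXL count among 1100 and not absence of AXL RNA. Thinned AXL counts had a variance of 1.40 times their mean. A Poisson distribution of the same mean has 64.3% of cells at 0, and 68.9% were observed. It also has 5.77 cells at 3 or more counts, and 15 were observed. If 1 count is 1 molecule, AXL thus differed between cells by somewhat more than the sampling of an equal level in all of them gives. At a mean of 0.441 counts per cell, these counts cannot show whether the cells fall into classes.

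**Figure D2:**
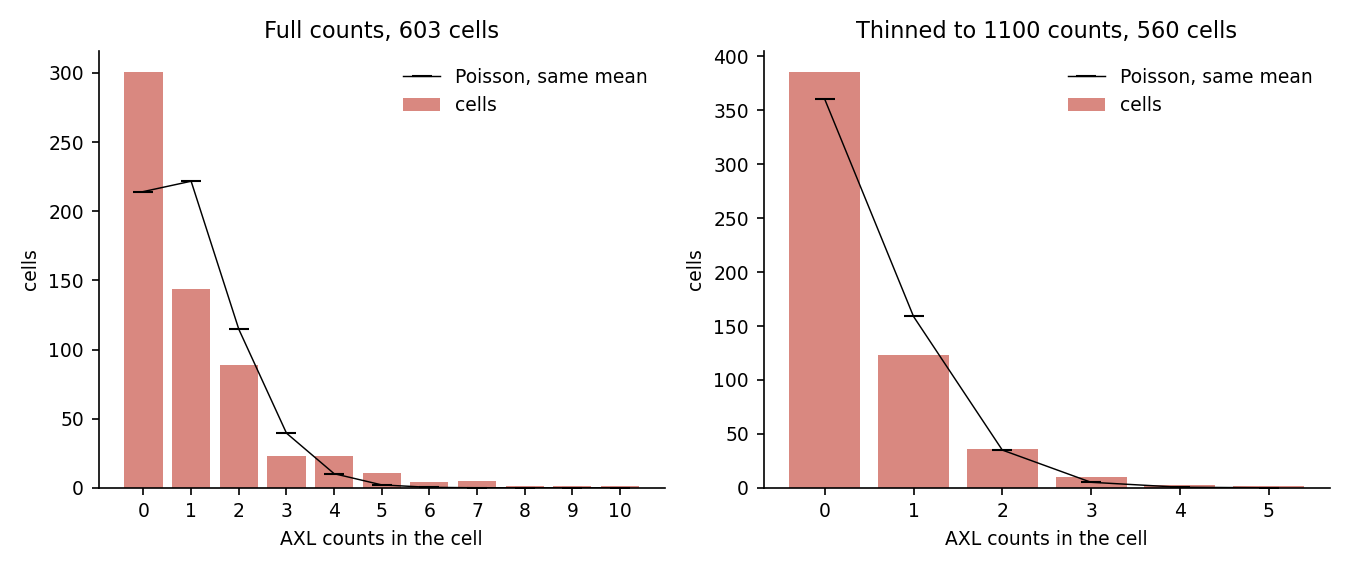
Number of cells (bars) by AXL counts in the cell, for the full counts of 603 cells (left) and for 560 cells thinned to 1100 counts (right), with the number that a Poisson distribution of the same mean gives (black marks and line). At equal depth 386 cells were at 0, where the Poisson distribution has 360.3.

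TYRO3, the receptor best known from the nervous system, was sparse. It had a count in 57 cells (9.45%, 7.24 to 12.1), of which 53 had 1 count, 3 had 2 and 1 had 3. At equal depth 28 of 560 cells (5.00%, 3.35 to 7.15) had a count, and the variance was 1.02 times the mean, or 1.16 times with another random seed. Its level was 36.9 CPM in barcode set 1 and 43.9 CPM in set 2. When the columns were divided into 12 blocks of neighbouring cells, the seventh block (columns 304 to 353) held 17 of the 62 counts (27.4%) with 9.79% of all counts, while the other blocks held 0 to 6. Without this block, chosen after its value was seen, TYRO3 stood at 32.4 CPM (23.7 to 43.4). AXL varied less over the blocks, from 277 CPM (185 to 397) in the sixth to 628 CPM (487 to 798) in the third, with a median of 389 CPM. No source used here says whether the blocks are plates or samples, and their part in the levels was not tested. A pseudogene row, TYRO3P, had 0 counts, and how reads were shared between TYRO3 and this copy is uncertain.

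**Figure D3:**
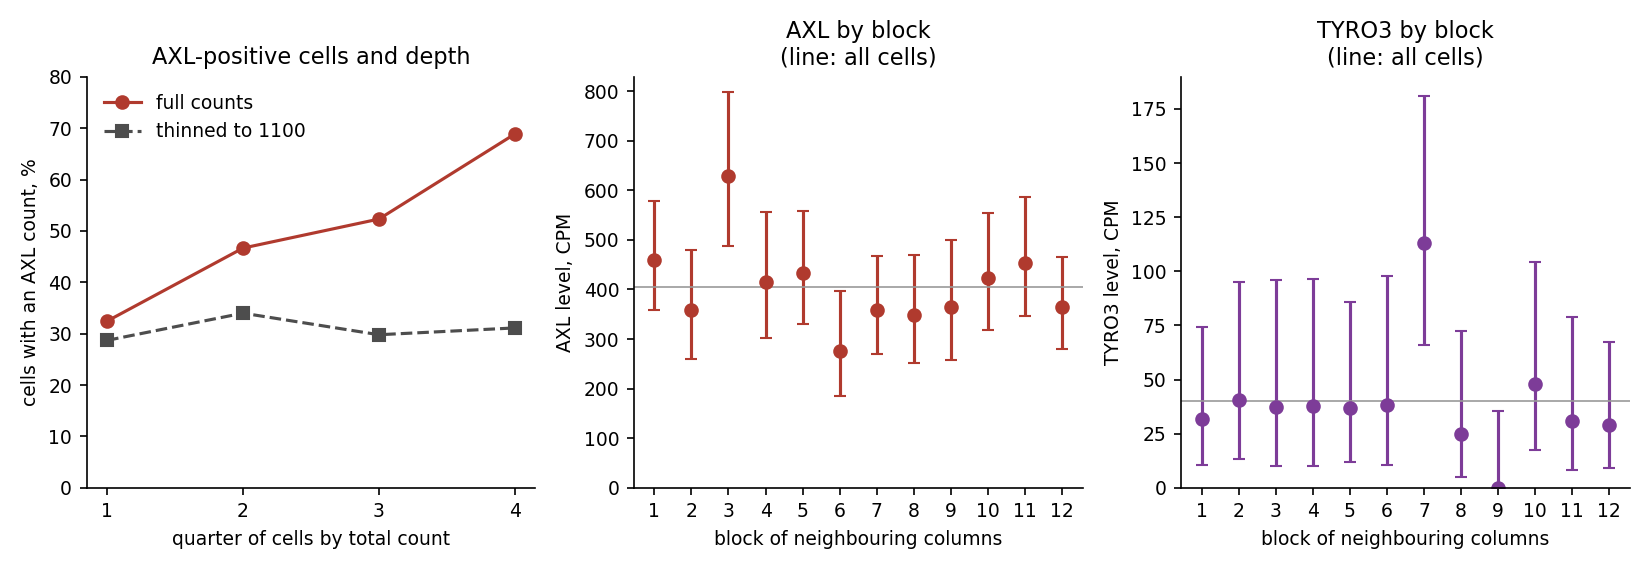
Left, the share of cells with an AXL count in 4 classes of cells by total count, for full counts (circles) and after thinning to 1100 counts (squares). Middle and right, AXL and TYRO3 levels in CPM with exact 95% Poisson intervals in 12 blocks of neighbouring columns, with the level in all cells as a line. The full share rises from 32.5% to 68.9% while the thinned share stays between 28.7% and 34.0%, and TYRO3 is highest in block 7 at 113 CPM.

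MERTK, the receptor typical of macrophages, had 9 counts in 8 cells (1.33%, 0.574 to 2.60), 7 of them in barcode set 1 and 1 in set 2. The cells with MERTK had totals from 1833 to 42404 with a median of 3302, above the median of all cells. Its level was 10.2 CPM (4.39 to 20) in set 1 and 1.33 CPM (0.0337 to 7.42) in set 2. The macrophage markers CSF1R, CD14 and FCER1G had 2, 1 and 1 counts in all cells, while CD68 and PTPRC of the same list were higher, as given above.

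Ligand transcripts were close to the limit of the data. GAS6 had 0 counts in all 603 cells, and its exact intervals reached up to 2.40 CPM and up to 0.610% of cells. Set against 3 counts (1.95 CPM) in place of 0, AXL was 208-fold higher, a value that leaves out counting error. PROS1 had 9 counts in 9 cells (1.49%, 0.685 to 2.81), 4 cells in barcode set 1 and 5 in set 2, all with totals of at least 2879. After thinning 1 cell kept a PROS1 count. Low counts of single rows in this table have limits that counting error does not cover. EEF1A1, an abundant translation factor of every cell with many processed copies in the genome, had 9 counts, as few as PROS1, while the translation factor EEF2 had 2056. PROS1 has a pseudogene, PROS2P, for which no row was matched. GAS6-AS1, an antisense gene, lies over the 3' end of GAS6 on the opposite strand in GENCODE v29. No row was matched to it, and no source used here says whether the counting used strand. The part of these in the low ligand counts was not tested.

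Machinery that makes and handles the ligands was transcribed. Of 6 genes for vitamin K dependent carboxylation and processing all stood at or above 5 CPM, against 35.2% of all named rows. NQO1, a quinone reductase, stood at 573 CPM (536 to 612), VKORC1, which recycles vitamin K, at 331 CPM (303 to 361), its paralog VKORC1L1 at 78.7 CPM, and the carboxylase gene GGCX at 38.4 CPM. Another list held further reported ligands and other bridging or receptor proteins for phosphatidylserine. In it the integrin subunit ITGB5 led at 345 CPM (316 to 375), followed by the galectin gene LGALS3 at 65.7 CPM and TUB at 42.9 CPM. Of its 12 members 7 had a count, against 50.4% of all named rows, and 5 had 0 counts. The scramblase ANO6, which moves phosphatidylserine to the outer membrane leaflet, reached 152 CPM (133 to 172), PLSCR3 68.9 CPM and the flippase subunit TMEM30A 20.8 CPM. The proteases that shed AXL were low, with ADAM17 at 19.5 CPM and ADAM10 at 11.7 CPM, and the ubiquitin ligase CBL, which acts on active receptors, stood at 46.2 CPM, TIMP3 at 44.9 CPM and TENC1 at 31.9 CPM. Of 38 genes that relay signals below the receptors, 31 stood at or above 5 CPM, led by the adaptor SHC1 at 820.1 CPM, the GTPase RAC1 at 807 CPM and the adaptor GRB2 at 429 CPM. All 21 factors reported to act on the AXL gene were at or above 5 CPM, with FOSL1 at 233 CPM, TEAD1 at 194 CPM and TWIST1 at 119 CPM, and SP1 at 11.1 CPM. The background of 35.2% at or above 5 CPM applies to both counts.

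Receptors and ligands were then compared cell by cell, to see whether they lay in the same cells. With full counts, 334 cells (55.4%, 51.3 to 59.4) had a count of some receptor, 301 of exactly 1 receptor, 33 of 2 and 0 of all 3. TYRO3 was found in 29 of 302 cells with AXL (9.60%, 6.53 to 13.5) and in 28 of 301 without it (9.30%, 6.27 to 13.2). The shares differ by less than their intervals. In the chosen thinning TYRO3 was found in 13 of 174 AXL-positive cells (7.47%, 4.04 to 12.4) and in 15 of 386 AXL-negative cells (3.89%, 2.19 to 6.33). Averaged over 20 thinnings the shares were 4.71% and 4.72%, with 8.45 cells holding both, where unrelated genes of these frequencies give 8.47. The number with both ran from 6 to 13 over the thinnings, and the rho of thinned AXL and TYRO3 averaged 0.0056. No relation between AXL and TYRO3 was detectable at this depth.

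MERTK and PROS1 were too sparse for more than a list of cells. Of the 8 cells with MERTK 4 had AXL, 0 had TYRO3 and 1 had PROS1. Of the 9 cells with PROS1 6 had AXL, with a median of 2 AXL counts, and 0 had TYRO3. The cell with both MERTK and PROS1 was the deepest cell, which also had 10 AXL counts. A PROS1 count lay beside a receptor count in 6 cells (0.995%, 0.366 to 2.15) and without any in 3. The cells with PROS1 had a median total of 3762 against 2106 for all cells, and deeper cells show more of every gene, so this overlap was not read further. GAS6 could not be placed in any cell.

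The genes most like AXL across cells were found by Spearman rho of thinned counts, averaged over 20 thinnings of the 560 cells. All 2059 genes outside the family with a mean of at least 0.1 thinned counts were compared. Cells of this sample share culture and depth, so rho is a description and carries no p. Of these genes 24 had a rho of at least 0.1 (1.17%) and 17 a rho of -0.1 or below (0.826%), and the middle 90% lay between -0.057 and 0.061. Sparse counts hold rho down, and all values given here are small.

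On the high side the metallothionein gene MT2A had a rho of 0.18. S100 genes, which encode small calcium-binding proteins, were present with S100A4 at 0.17, S100A16 at 0.15 and S100A6 at 0.11. The chromatin protein gene HMGA1 had 0.15, the serine protease inhibitor gene SERPINB2 0.14, the metalloproteinase inhibitor TIMP1 0.14, the calcium sensor HPCAL1 0.14, the integrin ITGA3 0.13 and the transglutaminase TGM2 0.13. P4HB, a protein disulfide isomerase, SSR3 of the translocon, the ferritin gene FTL and the corepressor DRAP1 all had 0.12. FTL has processed copies, so its counts are uncertain.

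The level of these genes was set beside AXL at equal depth. SERPINB2 stood at 177 CPM and 408 CPM, a ratio of 2.31 (1.66 to 3.21). Split further, it stood at 177 CPM at 0 AXL counts, 340.0 CPM at 1 and 570.4 CPM at 2 or more, in 386, 123 and 51 cells, but its 10 highest cells held 30.3% of its counts. Other genes had lower values in the last class. DRAP1 had 599 CPM (475 to 744) at 1 AXL count and 535 CPM (361 to 763) at 2 or more. S100A6 had 6319 CPM and 5651 CPM, and S100A16 had 2099 CPM and 2049.9 CPM. The intervals overlapped for each of these genes. Over all AXL-positive cells DRAP1 had a ratio of 2.0 (1.53 to 2.61), ITGA3 1.70 (1.32 to 2.18) and HMGA1 1.57 (1.32 to 1.86). The abundant genes differed less, S100A4 by 1.28 (1.19 to 1.38), FTL by 1.34 (1.25 to 1.43) and S100A6 by 1.24 (1.15 to 1.33). These genes were chosen by their relation to AXL, so the ratios describe its size and are no test of it.

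On the low side the leading gene was D4S234E, which encodes a neuronal endosomal protein, with a rho of -0.20, followed by DDC, the decarboxylase of catecholamine synthesis, at -0.19. The regulator of G protein signalling RGS5 and the complement gene C7 both had -0.18, and FAM167A had -0.16. The growth factor PTN, the row that INS shares with INS-IGF2, the glucagon gene GCG and the cytokine gene MIF all had -0.15, and the growth factor MDK had -0.12. DDC stood at 306 CPM (130 counts) in AXL-negative cells and 36.6 CPM (7 counts) in AXL-positive cells, a ratio of 0.119 (0.0471 to 0.253). Of 67 cells with a DDC count 3 had AXL (4.48%, 0.933 to 12.5), against 34.7% of cells without DDC. D4S234E had a ratio of 0.242 (0.125 to 0.431), and 7 of its 86 cells had AXL. PTN had a ratio of 0.150 (0.0704 to 0.283), C7 0.211 (0.0883 to 0.436) and FAM167A 0.168 (0.0528 to 0.412). GCG had 63 counts in AXL-negative cells and 0 in AXL-positive ones, and the interval of its ratio reached up to 0.134. With 3 counts in place of 0 it would be 9.47-fold lower. RGS5, seen in most cells, differed by 0.727 (0.638 to 0.825) and MIF by 0.580 (0.50 to 0.672). These genes too were chosen by their rho, so the ratios are no test of a relation. Several passed the mean of 0.1 thinned counts only through AXL-negative cells. Among them were GCG and FAM167A, with 0 and 5 counts in AXL-positive cells.

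**Figure D4:**
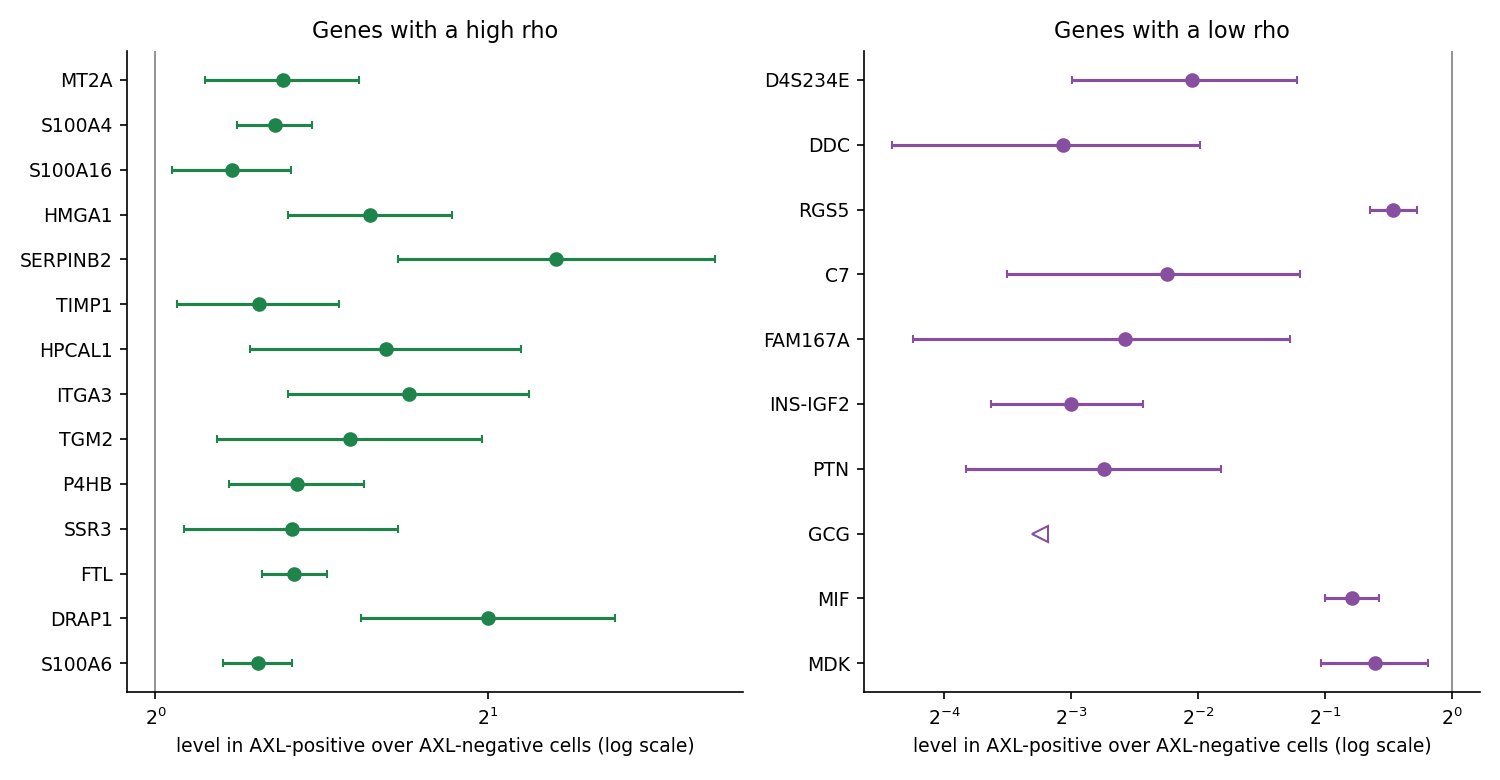
Ratio of thinned level in 174 AXL-positive over 386 AXL-negative cells, on a log scale with exact conditional binomial intervals at 95%, for 14 genes with a high (left) and 10 with a low (right) rho with AXL. GCG, with 0 counts in AXL-positive cells, is an open triangle at the ratio that 3 counts there would give. The genes were chosen by rho, so all ratios lie on the side of the choice, from 1.17 for S100A16 to 2.31 for SERPINB2 on the left.

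Few cells held much of some low-side genes. The 10 cells with the most held 59.5% of GCG counts, 48.8% of INS-IGF2 counts, 36.2% of DDC counts and 32.3% of C7 counts, and the intervals do not allow for this. AXL had a count in 19 of 93 cells with a thinned INS-IGF2 count (20.4%, 12.8 to 30.1) and in 33.2% (28.9 to 37.7) of the 467 without. With only these 467 cells, an alternative chosen after the data were seen, 11 genes had a rho of at least 0.1 and 7 a rho of -0.1 or below. All high-side genes named above kept a rho above 0 there, but several were much lower. S100A6 went from 0.11 to 0.037, FTL from 0.12 to 0.062, S100A4 from 0.17 to 0.093 and TGM2 from 0.13 to 0.085, all under 0.1, while MT2A was at 0.13. In the same cells all low-side genes other than INS-IGF2 kept a rho below 0, with D4S234E at -0.17, DDC at -0.15 and PTN at -0.04.

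To read the relation in cells that did not choose the genes, genes were picked in each barcode set and read in the other. The 15 genes with the highest rho in set 1 had a median rho of 0.11 in set 2, all 15 lay above 0 and 8 reached 0.1, against 2.87% of all genes. The 10 lowest in set 1 had a median of -0.16 in set 2, all 10 lay below 0 and 9 reached -0.1, against 1.65% of all genes. Picked in set 2, the 15 highest had a median of 0.060 in set 1, 12 lay above 0 and 6 reached 0.1, against 1.6% of genes. The 10 lowest had a median of -0.14, 9 lay below 0 and 8 reached -0.1, against 1.36%. The low side was thus carried over between the sets with little loss, and the high side with more. The sets come from the same cultures as far as the labels say, so this is a check within the sample.

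**Figure D5:**
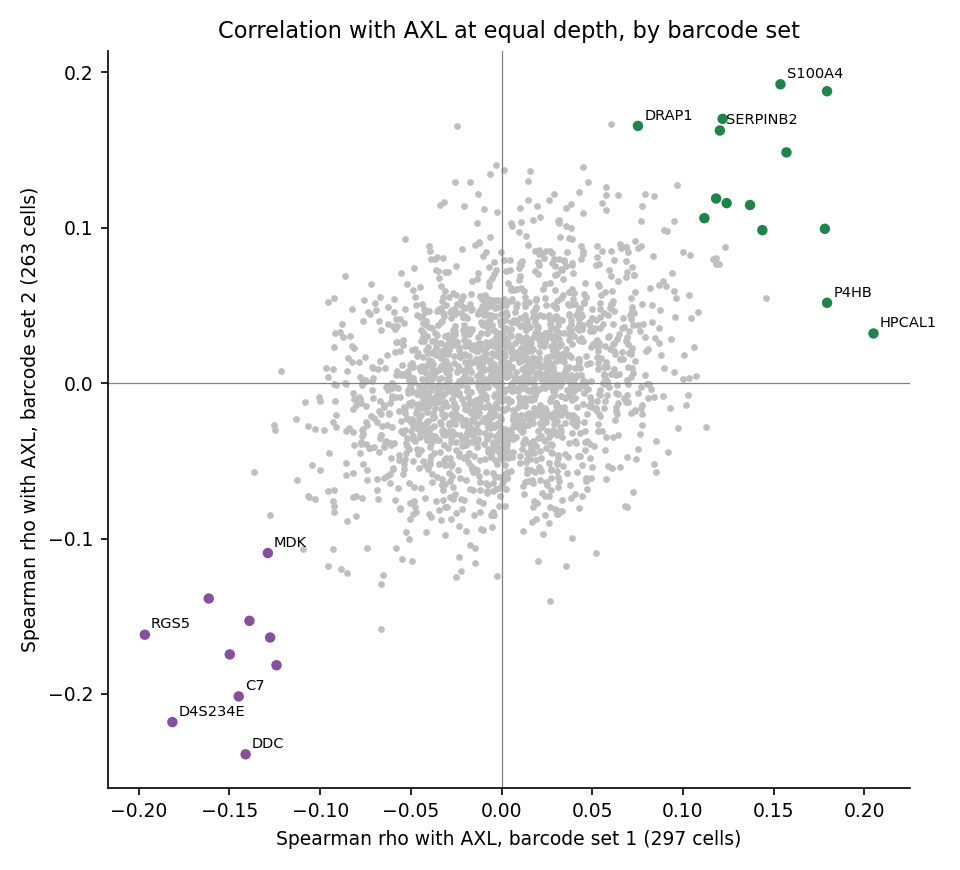
Spearman rho with AXL at equal depth in barcode set 1 (x axis) and barcode set 2 (y axis) for 2058 genes (grey), with 14 genes of high pooled rho in green and the 10 of lowest in purple, some of them named. All 24 lie on the same side of 0 in both sets, which choosing them by the pooled value makes likely, and HPCAL1 had 0.21 in set 1 and 0.032 in set 2.

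Genes of the receptor pathway were then read in the same way. Of the 9 signal relay genes with enough counts to be compared 0 reached a rho of 0.1 in either direction, which at 1.17% and 0.826% of all genes is a count that any list of this size could give. Their median was 0.00042 beside 0.0001 over all genes. FGFR1 had a rho of 0.081 and EPHA2 of 0.053. The carboxylation genes NQO1 and VKORC1 had 0.018 and -0.024, ITGB5 0.028 and ANO6 0.025. Among factors reported to act on AXL, FOSL1, a part of AP-1, had 0.092 with a level of 205 CPM in AXL-negative and 324 CPM in AXL-positive cells, a ratio of 1.58 (1.12 to 2.22). Its level was 392 CPM (293 to 512) in cells with 1 AXL count and 160.4 CPM (73.4 to 305) in cells with 2 or more. The last value rests on 9 counts, so no trend with the AXL count was read. TEAD1 had -0.0058 and TWIST1 0.015. TIMP3, an inhibitor of sheddases, was too sparse for rho, with 10 thinned counts in AXL-negative and 23 in AXL-positive cells, a ratio of 5.10 (2.34 to 12).

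Lists of cell states were read against AXL in the same way, with AXL left out. Of the mesenchymal list's 8 comparable members 0 reached a rho of 0.1 in either direction, which beside 1.17% and 0.826% of all genes says little for so few members. The median was 0.0045, and its summed level was 8702 CPM in AXL-negative and 8741 CPM in AXL-positive cells (ratio 1.00, 0.947 to 1.06). VIM had a rho of 0.040, ID1 -0.019 and ID3 -0.046. The adrenergic list was lower in AXL-positive cells, at 1343 CPM against 1894 CPM (ratio 0.709, 0.614 to 0.817), with a median rho of -0.084 over 6 members, of which DDC passed -0.1. Without DDC, left out after its value was seen, the ratio was 0.823 (0.709 to 0.953). That ratio still includes the counts of CHGA, and a ratio without both genes was not computed. The members of the list differed among themselves. GATA3 had a ratio of 0.530 (0.317 to 0.852) and CHGA had 61 counts against 0, while TBX2 had a ratio of 1.49 (1.14 to 1.94), HAND2 of 1.07 (0.761 to 1.49) and GATA2 of 0.716 (0.462 to 1.08). The CHGA counts lay in 21 cells. With 3 counts in place of 0 CHGA would be 9.17-fold lower, a value that leaves out counting error. GATA3 and CHGA were named after their values were seen.

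Factors reported to act on AXL summed to a ratio of 1.33 (1.12 to 1.57), at 897 CPM, 1323 CPM and 873 CPM in cells with 0, 1 and 2 or more AXL counts. Genes of shedding and turnover had a ratio of 1.60 (1.12 to 2.26), from 82 counts in AXL-negative and 59 in AXL-positive cells. TIMP3 alone gave 10 and 23 of these, and the list without it was not computed. From 0 to 2 or more AXL counts the list went from 195 to 352 CPM in barcode set 1 and from 191 to 136 CPM in set 2. Targets of MAPK signalling had a ratio of 1.14 (1.01 to 1.29). They stood at 1865 CPM, 2254 CPM and 1818 CPM in cells with 0, 1 and 2 or more AXL counts. Neither they nor the factors had a higher value at 2 or more AXL counts than at 0. The intervals at 2 or more were wide, 1483 to 2207 CPM for MAPK targets and 646 to 1155 CPM for the factors. A modest difference would not show there. The median rho of the MAPK targets was 0.055, with 0.024 in barcode set 1 and 0.058 in set 2, and its 3 most abundant members were IER3 (rho 0.065), PHLDA1 (0.057) and FOSL1. Targets of YAP had a ratio of 1.17 (0.978 to 1.39), with NT5E at a rho of 0.067, FJX1 at 0.054 and PTPN14 at -0.0064. Mitotic genes stood at a ratio of 0.902 (0.836 to 0.973), with HMGB2 at a rho of -0.065, TUBB4B at -0.0014 and BIRC5 at 0.050. In barcode set 1 the mitotic list went from 5344 CPM at 0 AXL counts to 4076 CPM at 2 or more. In set 2 it went from 5691 to 5955 CPM, so the sets did not share a direction. Replication genes stood at 0.961 (0.864 to 1.07), with NASP at -0.081, TYMS at -0.011 and MCM7 at -0.043. The fibroblast list had a ratio of 1.22 (1.14 to 1.30), which was 0.998 (0.853 to 1.17) without S100A4, a gene that many cell types express. THY1 had a rho of 0.039 and COL1A1 of -0.036. Endothelial markers had 16 thinned counts in AXL-negative and 1 in AXL-positive cells (ratio 0.139, 0.00331 to 0.892), of which FLT1 gave 15 and 1.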

How the data were processed

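The deposited values are whole-number counts for each gene row and cell column, without normalization. No source used here says if 1 count is a molecule or a read, and the intervals treat each count as a separate molecule. The submitters' processing notes name Bowtie2 2.1.0 and the genome build hg19. How reads were assigned to genes, which annotation was used and how cells were selected: not given in the sources used here. A row named unknown, with 2 counts (0.00013%), was left out of all totals. All cells passed a minimum of 500 counts. No doublet caller was run because cells were sorted singly into wells.

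Levels were computed as CPM over all cells. Cells were thinned without replacement to 1100 counts (numpy 2.4.6, scipy 1.17.1, Python 3.11.15). Co-occurrence and levels by AXL use 1 thinning, and rho is the mean over 20. The rho procedure was tested on simulated data. With 1 sample no test was made and no p-value given. Genes were named by rule: the members, the 10 most abundant receptor tyrosine kinases, the 3 most abundant members of each other list, list members with a rho of at least 0.1 or at most -0.1, and the 15 highest and 10 lowest rho. A gene that this rule names is not reported here. Any other gene is a list member named for its function or its value, or marks a limit of the counts. The members and lists were chosen with earlier results of these data known.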

Additional observations from a re-analysis of the deposited data

How the results depend on the processing

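No paired analysis was possible because all samples belong to 1 group and the columns carry no sample. Per-cell shares depend on depth by construction: at thinned depths of 800 and 2000 counts, AXL was seen in 24.2% and 48.0% of cells and TYRO3 in 3.15% and 7.95%. The difference in TYRO3 share between AXL-positive and AXL-negative cells, 3.59 points in the chosen thinning, was -1.27 points with another seed and -6.72 points at 2000 counts, so no direction was read from it. Without ribosomal protein genes in the totals, which raises every level, AXL stood at 488 CPM. MERTK stood at 1.33 CPM in barcode set 2. The number of genes with a rho of at least 0.1 was 59 in set 2, 108 at 2000 counts (327 cells) and 11 without cells holding INS-IGF2. The number at -0.1 or below was 28 and 34 in sets 1 and 2, 96 at 2000 counts and 7 without those cells. Each of these settings uses fewer cells, and the one at 2000 counts also uses more counts per cell. The cause of these shifts in number was not tested. For the genes named for the highest and lowest rho, 0 of the correlations computed under alternatives changed sign. These genes were chosen by their pooled rho, which makes this likely. Some list members named above did change sign between the barcode sets. VKORC1 had a rho of 0.020 in set 1 and -0.077 in set 2, and NQO1 had 0.040 and -0.0037. TEAD1 and TWIST1 also changed sign, while others such as FGFR1 and FOSL1 did not. AXL ranked first among receptor tyrosine kinases under each of the 3 alternatives tried for the rank. In all, 233 values stayed within the error set for them and 82 did not. Among lists, the median rho of mitotic genes, -0.015, was 0.0093 at 2000 counts and 0.022 in set 2, and that of YAP targets was 0.13 at 2000 counts. MERTK and PROS1 have too few counts for more than a description of single cells.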

Other observations

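Beyond the genes named by rule, 9 more genes reached a rho of at least 0.1 with AXL. They were the actin gene ACTG1 (0.11), SH3BGRL3 (0.11), BRI3 (0.11), NRN1 (0.11), AMIGO2 (0.11), PLP2 (0.10), the joint locus NDUFC2-KCTD14 (0.10), the calcium release channel gene ITPR3 (0.10) and METRNL (0.10). A further 7 genes lay at -0.1 or below, PCOLCE, which enhances procollagen processing (-0.11), GNAS (-0.11), the ribosomal protein gene RPL28 (-0.11), the creatine kinase gene CKB (-0.11), the neuropeptide gene NPY (-0.11), BEX1 (-0.10) and MED6 (-0.10). ACTG1 and RPL28 belong to families with close copies, so how reads were shared is uncertain.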
